A study of Caenorhabditis elegans with 6 samples.

Results

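The 22G-RNAs and 26G-RNAs antisense to 5 piRNA biogenesis genes, *snpc-4*, *prde-1*, *tofu-5*, *parn-1* and *henn-1*, were examined in *C. elegans* adults with and without EGGD-1, a LOTUS domain protein that holds germ granules at the nuclear envelope. The genes were taken by name for their steps in making piRNAs, and they are 5 of the 19781 genes with a 22G-RNA read in any library. All of them are protein-coding genes, and all had both 22G-RNA and 26G-RNA reads. The values below count small RNAs that target these genes, and do not measure their mRNAs or proteins.

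In *C. elegans*, piRNAs are made in the germ line from many short genes, each transcribed as a precursor that is capped, cleaved at the 5′ end, trimmed at the 3′ end and methylated at its last ribose. SNPC-4, PRDE-1 and TOFU-5 act together in the nucleus at the upstream sequences of piRNA genes, PARN-1 is the exonuclease that trims the 3′ end, and HENN-1 is the methyltransferase that adds the terminal 2′-O-methyl group to piRNAs and to ERGO-1 26G-RNAs. Mature piRNAs are bound by the Piwi protein PRG-1, which marks target transcripts for 22G-RNAs made by RNA-dependent RNA polymerases and bound by WAGO Argonautes. Other 22G-RNAs are bound by the Argonaute CSR-1.

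Small RNAs of synchronized whole adults grown at 20 °C on OP50 bacteria were sequenced in 6 libraries. The untreated control (2 libraries) is labelled as *pgl-1*::RFP, a strain that carries the P granule protein PGL-1 fused to RFP, and the untreated mutant (2 libraries) is labelled as *eggd-1* null, in which the whole open reading frame is deleted. RNA treated with sodium periodate, which removes most small RNAs without a terminal methyl group, gave 1 library of N2 (labelled as wild type) and 1 of the *eggd-1* null. The labels of the mutant libraries name no PGL-1 fusion, so the loss of *eggd-1* and a difference in this tag cannot be told apart, and the oxidized control is of another strain than the untreated one.

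Between 21883625 and 31245662 reads mapped to the genome in the untreated libraries, and 19457486 and 27109317 in the oxidized ones, so that a count of 0 in an untreated library allows up to 3 counts, or 0.0960 to 0.137 RPM (reads scaled by the authors to a common number of reads mapped to the genome). As a check of the labels, 22G-RNAs antisense to *eggd-1* itself (listed as *mip-1*) stood at 78.1 and 81.1 RPM in the control libraries, against 0.366 and 0.469 RPM in the mutant. Across the 11741 genes tested, the median log2 fold change of 22G-RNAs in *eggd-1* over control was -0.18, so a gene that moved with the bulk lay at that value. Levels of miRNAs used as tissue markers also differed between the genotypes. All 4 somatic marker miRNA sets (miR-1, let-7, lin-4 and lsy-6) were higher in both *eggd-1* libraries, by 1.27 ± 0.104-fold for let-7 to 1.93 ± 0.285-fold for lsy-6. The sum of all miRNAs was also higher in both (1.06 ± 0.0509-fold), and lsy-6 had only 3.97 to 8.87 RPM. How many other miRNAs were higher in both was not counted. The miR-35 to miR-42 family of oocytes and embryos was lower, at 10642 and 10906 RPM against 19343 and 16759 RPM (0.597 ± 0.0613 of control, SD, n = 2 per genotype). In such bulk samples, fewer germ cells of a kind and less small RNA per cell cannot be told apart, and the part of tissue makeup in the results below was not tested.

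Of the 5 genes, *henn-1* lost 22G-RNAs in *eggd-1*, to 0.616 ± 0.0673 of control, and *tofu-5* was lower by a smaller margin, at 0.818 ± 0.125 of control (SD, n = 2 libraries per genotype). *snpc-4*, *prde-1* and *parn-1* did not pass the test. Thus 2 of 5 genes were called lower by edgeR's quasi-likelihood test at an adjusted p below 0.05, where 40.8% of all genes tested were, and 0 of 5 were called higher, where 21.7% of all genes were. None of the 5 changed by 4-fold or more, a size reached by 4.81% of all genes among the lower calls. The share of the 5 genes called lower is therefore close to that of the whole table. With TMM scaling or DESeq2 instead, 1 of 5 was called lower, where 31.7% and 21.6% of all genes were. Their median log2 fold change was -0.12, beside -0.18 for all genes. *snpc-4*, *tofu-5* and *henn-1* had both *eggd-1* libraries below both control libraries, as 51.8% of all genes did. The plot of the levels by library shows these values with those of the oxidized libraries.

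**Figure D1:**
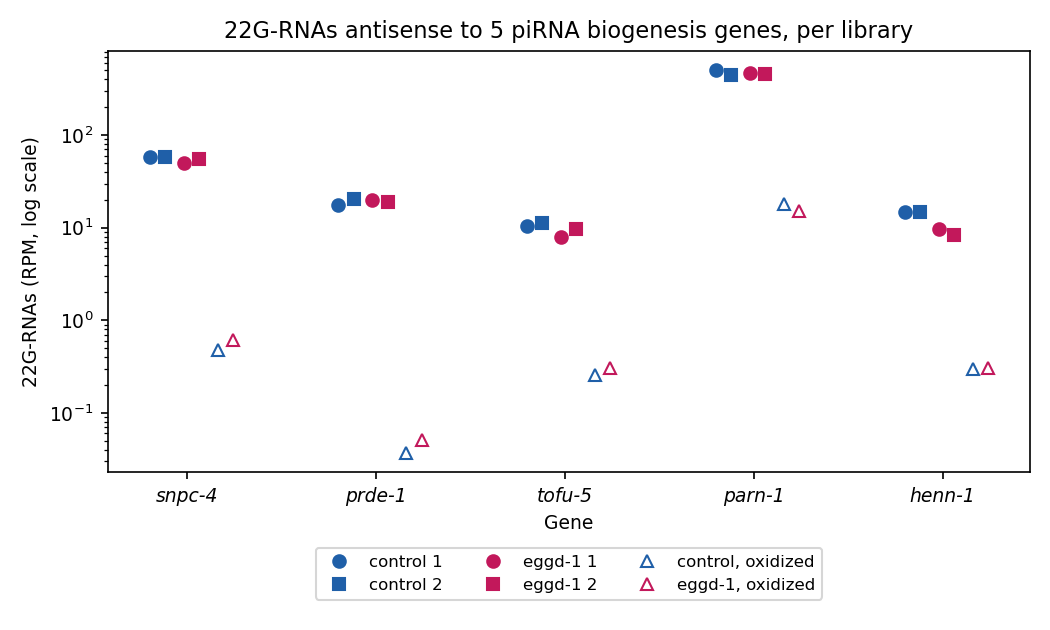
22G-RNAs antisense to the 5 genes (horizontal axis) in RPM on a log axis, with 1 symbol per library (circles and squares, untreated replicates; open triangles, oxidized libraries). The control and *eggd-1* symbols lie apart by the widest margin at *henn-1* (14.8 and 14.7 against 9.78 and 8.38 RPM), *parn-1* has the highest levels of the 5, and the oxidized libraries lie far below the untreated ones for every gene.

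Transcription of piRNA genes was taken first. *snpc-4* (WBGene00001568; chromosome I, 8962322 to 8966129, plus strand of WBcel235; 13 exon blocks), the piRNA-promoter factor of the snRNA-activating family, carried 57.5 and 58.3 RPM of 22G-RNAs in the control and 50.5 and 55.7 RPM in *eggd-1*. Both mutant libraries were the lower ones, but the 95% interval of the fitted fold, 0.828 to 1.02, spans no change (log2 fold change -0.12, standard error 0.0720, adjusted p = 0.131 from edgeR with Benjamini-Hochberg adjustment). Relative to the median of all genes the change was 0.05, and its sign turned with TMM scaling (0.02) and DESeq2 (0.05), so no direction is given for *snpc-4*. Without *eggd-1* replicate 2 it would be called lower (-0.20, adjusted p = 0.0432 from edgeR).

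*prde-1* (WBGene00008995; chromosome V, 15538244 to 15547086, plus strand; 8 exon blocks), which encodes a nuclear protein needed for piRNA precursor transcription, had 17.6 and 20.4 RPM in the control and 19.9 and 19.0 RPM in *eggd-1*. The groups overlapped, and the control libraries were farther apart than the mutant ones. The log2 fold change was 0.03 with a standard error of 0.0887 (adjusted p = 0.776 from edgeR with Benjamini-Hochberg adjustment), and the interval of the fold, 0.901 to 1.16, leaves room for a change of that size in either direction. Without control replicate 1 the log2 fold change was -0.07 and without *eggd-1* replicate 1 it was -0.00, so its sign rests on single libraries.

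*tofu-5* (WBGene00012167; chromosome I, 7069440 to 7070665, plus strand; 5 exon blocks) encodes a partner of SNPC-4 and PRDE-1 at piRNA genes. Its 22G-RNAs stood at 10.3 and 11.3 RPM in the control and at 7.997 and 9.72 RPM in *eggd-1*, and the groups did not overlap. The log2 fold change of -0.29 (standard error 0.113, interval of the fold 0.698 to 0.961) had an adjusted p of 0.0280 from edgeR with Benjamini-Hochberg adjustment. Relative to the median of all genes it was -0.11. The call was lost with TMM scaling (-0.14, adjusted p = 0.265), with DESeq2 (-0.11, adjusted p = 0.635), without control replicate 2 (-0.22, adjusted p = 0.187) and without *eggd-1* replicate 1 (-0.16, adjusted p = 0.301), and it was kept in 7 of 11 alternatives.

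Trimming of the piRNA 3′ end is represented by *parn-1* (WBGene00010734; chromosome V, 12692486 to 12695255, minus strand; 7 exon blocks). Its 22G-RNAs reached 506 and 446 RPM in the control and 474 and 453 RPM in *eggd-1*, and the groups overlapped, with both mutant values between the control values. The fold was 0.973 ± 0.0923 (SD, n = 2) and the log2 fold change -0.04 (standard error 0.0734, interval of the fold 0.877 to 1.08, adjusted p = 0.659 from edgeR with Benjamini-Hochberg adjustment), with the sign turning under TMM scaling (0.11), under DESeq2 (0.14) and without control replicate 1 (0.06). Between 10372 and 14272 reads per untreated library stand behind these values, the deepest coverage of the 5 genes. *parn-1* took 0.119% of all 22G-RNA reads in the control and 0.122% in *eggd-1*.

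Methylation of the 3′ end is represented by *henn-1* (WBGene00015349; chromosome III, 8232651 to 8234611, plus strand; 6 exon blocks). 22G-RNAs antisense to *henn-1* were at 14.8 and 14.7 RPM in the control and fell to 9.78 and 8.38 RPM in *eggd-1*. The gap between the groups was wider than the spread within either. The log2 fold change was -0.70 (standard error 0.104, interval of the fold 0.530 to 0.711) with an adjusted p of 8.09e-07 from edgeR with Benjamini-Hochberg adjustment. Relative to the median of all genes the change was -0.52, and 23.2% of the genes tested had a log2 fold change as low or lower. In all 11 alternatives, which include other scalings, filters and each library left out, *henn-1* stayed lower and past the threshold (log2 fold change -0.82 to -0.52, adjusted p from 3.20e-10 to 0.00388). The read counts behind these values were 418 and 458 in the control and 214 and 196.5 in *eggd-1*.

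Per kilobase of exon, the mean 22G-RNA level over the untreated libraries was 267 RPM for *parn-1*, 18.1 RPM for *snpc-4*, 10.7 RPM for *prde-1*, 9.68 RPM for *tofu-5* and 7.81 RPM for *henn-1*. Among all genes tested, *parn-1* stood at the 98.4th percentile of this density, *snpc-4* at percentile 78.6 and the other 3 between percentiles 56.2 and 64.7. Hence *parn-1* is a heavy 22G-RNA target, and *henn-1*, *tofu-5* and *prde-1* lie near the middle of the range. The exons of *snpc-4* and *henn-1* overlap those of a gene on the same strand by 16 bases (*mdt-31*) and 10 bases (*fbxl-1*), a short stretch in which a read was divided between the genes.

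The authors' files place each gene in target classes, each named for an Argonaute, another small RNA factor or a germline sex, and these differ among the 5 genes. *snpc-4* is in the WAGO-4 class alone, and *tofu-5* is in the CSR-1 class and among the oogenic genes. *prde-1* is in the CSR-1, WAGO-1, WAGO-4, PRG-1 and MUT-16 classes, so the files count a piRNA transcription factor among genes whose own 22G-RNAs depend on the piRNA Argonaute. *parn-1* is also in the PRG-1, MUT-16, WAGO-1 and WAGO-4 classes, with HRDE-1 and the spermatogenic genes in addition. *henn-1* is in the CSR-1, WAGO-1, WAGO-4 and ALG-3/4 classes, and like *prde-1* it is also listed as gender-neutral.

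Within these classes, *prde-1* and *parn-1* lay above the middle of classes that were low in *eggd-1*. They also lay above the middle of all genes tested, at percentiles 63.9 and 59.4 of the log2 fold change. In the PRG-1 class, 60.3% of 1420 genes were called lower, with a median log2 fold change of -0.47. *prde-1* was at percentile 70.8 and *parn-1* at percentile 67.4 of that class. In the HRDE-1 class, whose median was -0.53, *parn-1* was at percentile 71.6. Among spermatogenic genes, 50.9% of which were called higher (median 0.68), it was at percentile 31.7.

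*henn-1* was placed the other way. In the ALG-3/4 class, 54.6% of 993 genes were called higher and the median log2 fold change was 0.72, and *henn-1* was at percentile 7.05. In the CSR-1 class, whose median was -0.12, it was at percentile 8.05. In the WAGO-1 class, whose median was -0.31, it was at percentile 26.4. *tofu-5* and *snpc-4* were nearer the middle of their classes, at percentile 32.2 of the CSR-1 class and 46.9 of the oogenic genes for *tofu-5* and at percentile 52.0 of the WAGO-4 class for *snpc-4*. These places are descriptions, since the classes share genes and hold the 5 genes themselves.

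**Figure D2:**
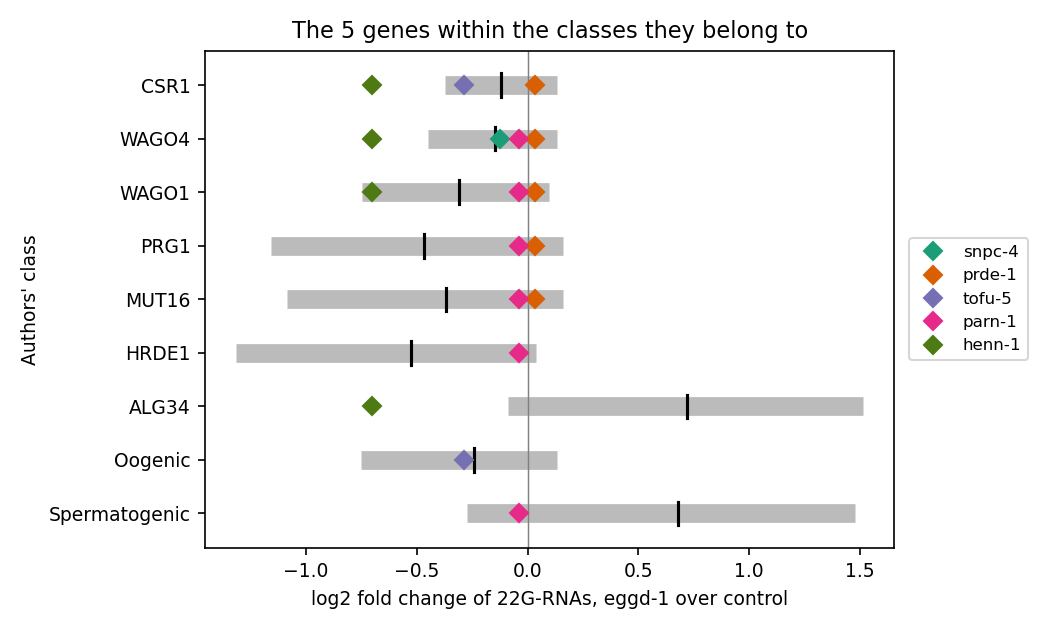
Log2 fold change of 22G-RNAs in *eggd-1* over control (horizontal axis) for the authors' classes that hold any of the 5 genes (vertical axis; the gender-neutral class is not shown). Grey bars span the middle 50% of the tested genes of a class, black ticks mark its median, and diamonds mark the 5 genes. *henn-1* (-0.70) lies left of the grey bar in the ALG-3/4, CSR-1 and WAGO-4 classes and inside it in the WAGO-1 class, and *prde-1* (0.03) and *parn-1* (-0.04) lie right of the medians of the PRG-1 and MUT-16 classes.

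A list of 19 further genes of the pathway was read from the same test, and 18 of them had a row in the files. Of the 17 that passed the filter, 5 were called higher, 3 lower and 9 neither, with a median log2 fold change of 0.12. For all genes the shares were 21.7% higher and 40.8% lower. With TMM scaling 11 of 17 were called higher (29.4% of all genes) and 0 lower (31.7%), and with DESeq2 9 were called higher (22.8%) and 0 lower (21.6%), so the number of calls in each direction depends on the scaling.

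Among the 6 transcription genes tested, which include *snpc-4*, *prde-1* and *tofu-5*, 2 were called higher (33.3%, beside 21.7% of all genes). Both had more 22G-RNAs in *eggd-1* by over 2-fold. Their log2 fold changes stood at percentiles 95.4 (*attf-6*) and 93.05 (*snpc-1.3*) of all genes tested. *attf-6*, which encodes an AT-hook protein, went from 75.1 and 78.9 RPM in the control to 215 and 229 RPM in *eggd-1*, or 2.89 ± 0.163-fold (log2 fold change 1.53, standard error 0.0719, adjusted p = 4.97e-18 from edgeR with Benjamini-Hochberg adjustment). *snpc-1.3*, a factor of male piRNA transcription and in the files a spermatogenic gene, went from 4.51 and 4.83 RPM to 11.5 and 10.6 RPM, or 2.36 ± 0.174-fold (log2 fold change 1.24, standard error 0.122, adjusted p = 2.99e-10 from the same test). In each, every *eggd-1* library was at more than 2 times the control mean, and all 11 alternatives kept the call. In the oxidized libraries, *attf-6* had 21 reads in the control (0.775 RPM, exact Poisson 95% interval 0.480 to 1.18 RPM) and 6.84 RPM in *eggd-1* (interval 5.73 to 8.11 RPM), again the higher of the pair. *tofu-4*, whose product works with SNPC-4, PRDE-1 and TOFU-5, had 60.8 and 64.9 RPM against 65.0 and 71.5 RPM and did not pass the test (log2 fold change 0.12, adjusted p = 0.149 from edgeR), though it did with TMM scaling (0.27) and DESeq2 (0.30). *unc-130* had too few reads to be tested.

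In precursor processing, 2 of 10 genes tested were called higher, a share (20%) near that of all genes (21.7%). Both encode subunits of PETISCO, the complex that binds capped piRNA precursors. *erh-2* rose from 9.26 and 8.74 RPM to 13.4 and 13.9 RPM (log2 fold change 0.60, adjusted p = 7.80e-06 from edgeR) and *pid-3* from 22.6 RPM in each control library to 28.2 and 29.5 RPM (0.35, adjusted p = 2.42e-04 from edgeR), both in all 11 alternatives. The other PETISCO genes *tofu-6*, *tost-1*, *pid-1* and *ife-3* were not called, with log2 fold changes from -0.08 for *ife-3* to 0.23 for *tost-1*. With TMM scaling *tost-1* (0.38, adjusted p = 0.0190 from edgeR) and *pid-1* (0.29, adjusted p = 0.0165 from edgeR) were called higher, but with DESeq2 neither was (0.41, adjusted p = 0.118, and 0.32, adjusted p = 0.104). *ife-3* was above 0 with TMM scaling (0.07) and DESeq2 (0.10), and *tofu-6* (0.06) was below 0 without *eggd-1* replicate 2 (-0.01).

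Of the genes for the nuclease that cleaves the 5′ end, *tofu-1* was called lower (log2 fold change -0.19, adjusted p = 0.0434 from edgeR), while *tofu-2* (-0.19), *slfl-3* (0.10) and *slfl-4* (0.12) were not called. Both *slfl-3* (0.25 and 0.28) and *slfl-4* (0.27 and 0.30) were called higher with TMM scaling and with DESeq2, in that order, with adjusted p from 0.00162 to 0.0496. *tofu-2* was called lower without control replicate 2 (-0.33, adjusted p = 0.0293 from edgeR). *ints-11*, the Integrator endonuclease (-0.17, adjusted p = 0.0388 from edgeR), and *tofu-7*, a gene from a piRNA factor screen (-0.25, adjusted p = 0.0436 from edgeR), were the remaining lower calls. The lower calls of *tofu-1*, *ints-11* and *tofu-7* were lost with TMM scaling, with DESeq2 and without a filter, *ints-11* was at 0.00 with DESeq2, and relative to the median of all genes none of the 3 was below -0.07. *prg-1*, the piRNA Argonaute itself, had 315 and 319 RPM in the control and 358 and 397 RPM in *eggd-1*, a 1.19 ± 0.0860-fold rise (log2 fold change 0.25, adjusted p = 0.00282 from edgeR). The rise of *prg-1* missed the threshold without *eggd-1* replicate 2 (0.18, adjusted p = 0.0817). Its near copy *prg-2*, annotated as a pseudogene, was not called (0.15), but it was called higher with TMM scaling (0.30, adjusted p = 3.57e-04), with DESeq2 (0.33, adjusted p = 2.89e-04) and without *eggd-1* replicate 1 (0.26, adjusted p = 0.00722). Because reads shared by the pair were divided, the values of *prg-1* and *prg-2* are uncertain.

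**Figure D3:**
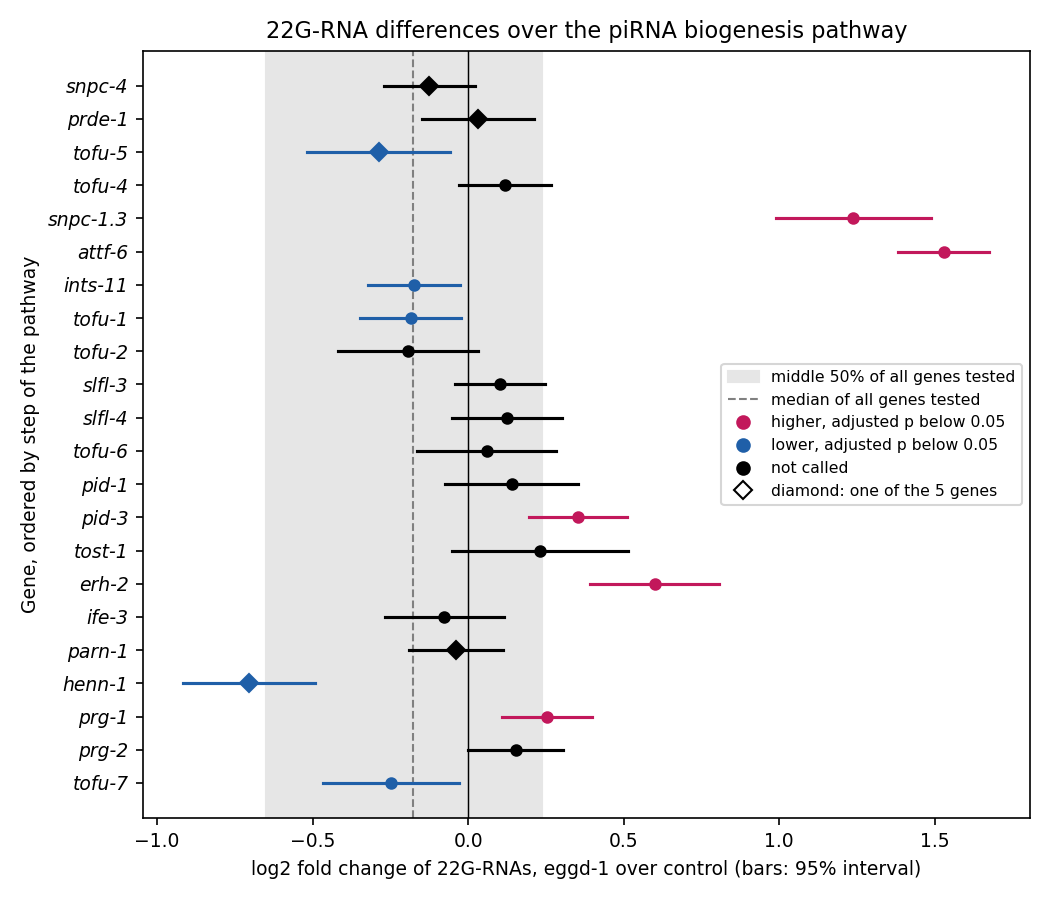
Log2 fold change of 22G-RNAs in *eggd-1* over control with its 95% interval (horizontal axis) for the 22 tested genes, ordered by step of the pathway (vertical axis); diamonds are the 5 genes, red marks higher calls and blue lower calls. The grey band holds the middle 50% of all 11741 genes and the dashed line their median (-0.18). *attf-6* (1.53) and *snpc-1.3* (1.24) stand farthest to the right and *henn-1* (-0.70) farthest to the left.

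26G-RNAs antisense to the 5 genes were near the limit of detection. In control replicates 1 and 2 and *eggd-1* replicates 1 and 2, in that order, *snpc-4* had 0, 2, 2 and 3 reads and *prde-1* had 0, 1, 2 and 1. *parn-1* had 2, 4, 3 and 0 reads in the same order. *tofu-5* had reads only in control replicate 2, with 4, and *henn-1* only in control replicate 1, with 1. No gene of the 5 passed the filter that 875 genes passed. Without the filter all 5 were tested by edgeR's quasi-likelihood test and 0 were called (adjusted p from 0.309 to 0.722 with Benjamini-Hochberg adjustment), where 0.625% of 7363 genes were called lower and 13.3% higher. None of the 5 had an unadjusted p below 0.05 either, and no other tool was run on genes below the filter. A difference was not detectable at this depth. Summed over the 5 genes there were 14 reads in the control, 11 in *eggd-1* and 0 in the oxidized libraries.

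The piRNAs of the same libraries were then set beside these genes. Summed over 13994 loci, piRNAs reached 58278 and 60506 RPM in the control and 65441 and 69888 RPM in *eggd-1*, so the mutant mean was 1.14 ± 0.0610 of control (SD, n = 2). The 3750 loci that the files class as male differed by a larger ratio, with 6096 and 6192 RPM in the control and 12371 and 12736 RPM in *eggd-1* (2.04 ± 0.0476 of control). They made up 10.5% and 10.2% of piRNA reads in the control and 18.9% and 18.2% in *eggd-1*. Both sums were higher in each *eggd-1* library than in each control library, with an exact permutation p of 0.333, the smallest that 2 libraries per genotype allow.

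The 1724 female loci had 19469 and 20444 RPM in the control and 18311 and 19942 RPM in *eggd-1*. The groups overlapped, with a ratio of 0.958 ± 0.0666 (two-sided exact permutation p = 0.667). The 8520 remaining loci had a ratio of 1.08 ± 0.0585. Sums for the spermatogenesis markers moved with the male piRNAs, since 26G-RNAs of the 1325 genes in the ALG-3/4 class went from 324 and 351 RPM to 1180 and 1048 RPM, 3.30 ± 0.332 of control. Among the oogenesis markers, 26G-RNAs of the 59 genes in the ERGO-1 class, which HENN-1 methylates, went from 316 and 299 RPM to 204 and 215 RPM, 0.683 ± 0.0357 of control.

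Side by side on the scale of the control mean, male piRNAs stood at 2.01 and 2.07 in *eggd-1* replicates 1 and 2 and all piRNAs at 1.10 and 1.18. In the same libraries *henn-1* 22G-RNAs stood at 0.663 and 0.568, and those of *snpc-1.3* at 2.46 and 2.27. The log2 fold change of *snpc-1.3*, 1.24, lay between the quartiles of the spermatogenic class to which it belongs (-0.27 and 1.47, median 0.68). Its rise was therefore within the common range of that class. *snpc-4* (0.872 and 0.961), *prde-1* (1.05 and 1.00), *tofu-5* (0.739 and 0.898) and *parn-1* (0.995 and 0.952) lay closer to the control. With 4 libraries in 2 groups no relation between a gene and the piRNAs was tested.

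**Figure D4:**
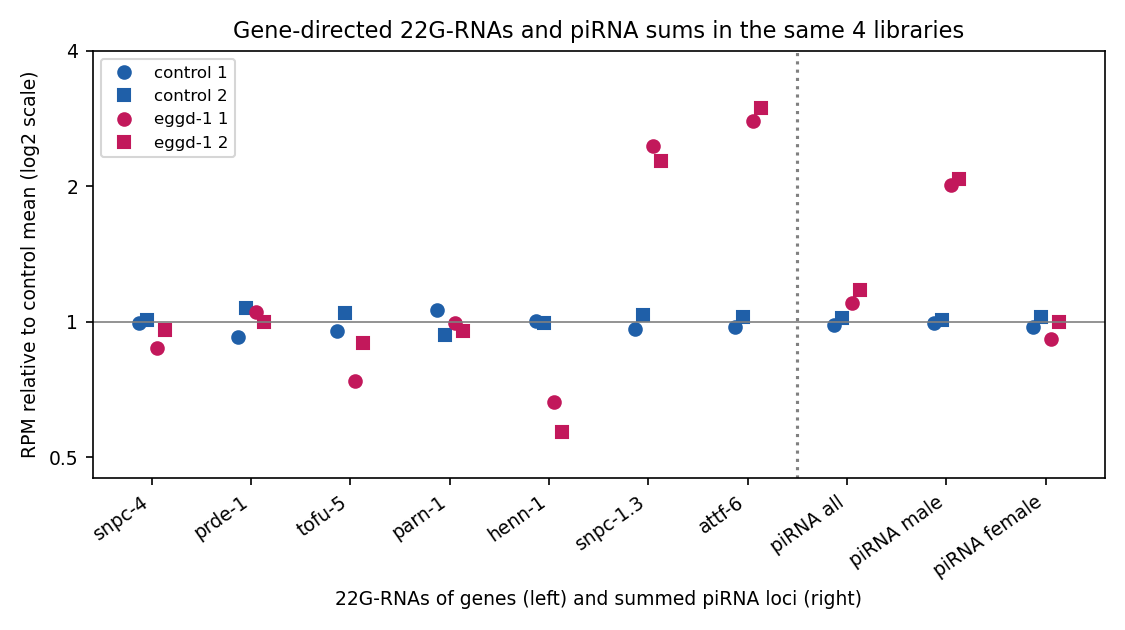
RPM relative to the control mean (log2 axis) in the 4 untreated libraries, for 22G-RNAs of the 5 genes, *snpc-1.3* and *attf-6* (left of the dotted line) and for summed piRNA loci (right); blue is control, red is *eggd-1*, circles are replicate 1 and squares replicate 2. Male piRNAs (2.01 and 2.07), *snpc-1.3* and *attf-6* lie above 2 in *eggd-1*, *henn-1* lies at 0.663 and 0.568, and female piRNAs lie near 1.

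Periodate oxidation gave the methylated fraction, 1 library per genotype and hence without a replicate check. piRNAs took 861138 RPM in the oxidized control and 864314 RPM in the oxidized *eggd-1* library, 14.5 and 12.8 times the untreated means. For the control, each ratio or percentage of this kind divides an N2 library by *pgl-1*::RFP libraries, so a strain difference enters it. For the mutant, both sides are labelled as *eggd-1* null. ERGO-1 26G-RNAs reached 3367 and 1939 RPM, 10.97 and 9.25 times the untreated means. The sum of 26G-RNAs of the ALG-3/4 class reached 596 and 519 RPM, 1.76 and 0.466 times those means. Both ratios were above those of the 22G-RNAs described next, which stood at 2.68% and 2.77% of their untreated RPM. The class is set by target gene, and the methylation of its reads was not tested. The cause of the gap between the genotypes was not tested either. The share of male loci among piRNA reads was 10.3% and 19.0%, near the untreated shares of each genotype.

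22G-RNAs, which are unmethylated, stood at 2.68% and 2.77% of their untreated RPM in the oxidized control and *eggd-1* library. *parn-1* had 17.9 RPM (485 reads, exact Poisson 95% interval 16.3 to 19.6 RPM) and 15.3 RPM (298 reads, 13.6 to 17.2 RPM), or 3.76% and 3.30% of its untreated RPM. RPM is a share of each library's reads, and piRNAs took most of them after oxidation. The percentages here and the ratios above therefore do not give the fraction of molecules that survived. The other 4 genes had between 1 and 13 reads in each oxidized library. *henn-1* had 8 reads in the control (0.295 RPM, interval 0.127 to 0.581 RPM) and 6 in *eggd-1* (0.308 RPM, interval 0.113 to 0.671 RPM), so the difference seen in the untreated libraries could not be resolved there. *prde-1* had 1 read in each, or 0.194% (interval 0.00491% to 1.08%) and 0.264% (0.00668% to 1.47%) of the untreated level. Such intervals cover counting error only, since 1 library per genotype gives no spread between libraries. The reads carry no molecular identifiers, so copies of a molecule may be counted as separate reads.

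The genes whose 22G-RNA profile was most like that of each of the 5 were ranked among 8250 genes by the root mean square difference of centred log2(RPM + 0.1) over the 4 untreated libraries. For *henn-1* they were the transposon Tc2 (0.0144) and *pir-1* (0.0153), which encodes an RNA phosphatase. *pir-1* had 8.85 and 8.61 RPM in the control and 5.73 and 5.03 RPM in *eggd-1*, and 348 genes lay at a distance of 0.1 or less from *henn-1*. For *parn-1* they were WBGene00013576 (0.0119) and the thioredoxin reductase gene *trxr-1* (0.0134), and for *snpc-4* *nstp-4* (0.00594) and *tric-1B.2* (0.00674). For *prde-1* they were the hexokinase gene *hxk-1* (0.0161) and WBGene00012210 (0.0222), and for *tofu-5* *spcs-2* (0.0143) and *mma-1* (0.0150). With 650 to 1714 genes within 0.1 of each of these 4, their profiles over 4 libraries are common ones.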

How the data were processed

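Small RNAs of 2 untreated control, 2 untreated *eggd-1*, 1 oxidized control and 1 oxidized *eggd-1* sample were read from per-library tables. Replicates are 2 biological replicates per the study's methods, and replicates differed by more than sampling noise (chi-square per degree of freedom 2.90 and 2.56 for 22G-RNAs).

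The authors trimmed reads with Trim Galore, removed structural RNAs, aligned the rest to WormBase WS279 with Bowtie without mismatches, and divided each read by its genome locations and overlapping features, so the deposited values are expected counts. The authors also deposited each value in RPM over reads mapped to the genome. Genes with no entry in a library were taken as 0. Division makes low and repeated features depend on their neighbours and copies.

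After rounding, these counts entered the quasi-likelihood test of edgeR 4.0.16 in R 4.3.3, with genome-mapped reads as library size, a minimum count of 10 in edgeR's default filter and Benjamini-Hochberg adjustment over all genes of a class. A call needed an adjusted p below 0.05. On simulated data with 6-fold changes, 196 of 200 changed 22G-RNA genes were called with 8 false calls among 11741 genes. None of the piRNA biogenesis genes examined changed that much, so the simulation does not show how often changes of their size are missed. Because it changed only 200 genes, it also does not give the rate of false calls where a large share of genes differs. Alternatives were TMM scaling, the total of all small RNA features as library size, DESeq2 1.42.0, limma 3.58.1 on log2(RPM + 0.1), a block for replicate number, fits with no filter or only genes averaging 50 counts or more, and each library left out in turn. Sums were compared by two-sided exact permutation tests (scipy 1.17.1, Python 3.11.15). Oxidized libraries entered no test. Gene models came from Ensembl release 115 of WBcel235, the assembly of WS279, and *tofu-3*, which found no match, was not analysed here.

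Named genes were the 5 genes, 19 other pathway genes, *eggd-1*, and for each of the 5 genes the 2 genes with the closest profile among those with a mean of at least 50 counts. Individual piRNA loci were not reported. The genes and lists were chosen with earlier results of these data known.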

Additional observations from a re-analysis of the deposited data

How the results depend on the processing

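The number of the 5 genes called lower was 1 instead of 2 with TMM scaling and with DESeq2, and from 1 to 3 when each library was left out. Such fits leave 1 library in a genotype, which is assumed to vary like the others. By gene, leaving out each library gave log2 fold changes from -0.20 to -0.057 for *snpc-4*, from -0.069 to 0.14 for *prde-1*, from -0.44 to -0.16 for *tofu-5*, from -0.13 to 0.055 for *parn-1* and from -0.82 to -0.59 for *henn-1*. With TMM scaling and DESeq2, in that order, *snpc-4* was at 0.021 and 0.052, *parn-1* at 0.11 and 0.14, and *tofu-5* at -0.14 and -0.11. The median of all genes moved with these scalings from -0.18 to -0.03 and to -0.00. Of the other pathway genes, 0 were called lower with TMM scaling, DESeq2 or no filter and from 0 to 3 with a library left out, and 11 (TMM scaling) or 9 (DESeq2) were called higher instead of 5. *ife-3* was at 0.069 with TMM scaling, 0.10 with DESeq2, 0.0020 without control replicate 2 and 0.021 without *eggd-1* replicate 2. *ints-11* was at 0.0033 with DESeq2, and *tofu-6* ranged from -0.0052 to 0.12 with a library left out. Relative to miRNA reads, the ratios of *eggd-1* over control were 1.08 for all piRNAs, 1.93 for male and 1.02 for the remaining loci. The cause of these differences was not tested. With the replicate number as a block, *henn-1* was at -0.71 and *tofu-5* at -0.29 (adjusted p = 0.0197 from edgeR). The numbers did not pair the samples (correlation of same-numbered deviations 0.0567 over 22G-RNA genes). Read depth limits the 26G-RNAs and the oxidized 22G-RNAs of the 5 genes, at 0 to 4 reads and, except *parn-1*, at 1 to 13 reads.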
